A study of Mus musculus with 30 samples.

Results

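The chaperonin CCT, also called TRiC, is the cytosolic folding machine for actin, tubulin and a set of other proteins, and its 8 subunit genes are described here: Tcp1, Cct2, Cct3, Cct4, Cct5, Cct6a, Cct7 and Cct8, which encode the alpha, beta, gamma, delta, epsilon, zeta, eta and theta subunits in that order. They were taken by symbol from a table of read counts for 57186 gene identifiers, and all 8 were found and passed the filter on low counts in both cell lines. RNA came from 2 mouse lines that both carry a ROSA26 SLT knock-in: NIH/3T3, a fibroblast line grown in serum, and CGR8, an embryonic stem cell line grown in serum-free N2B27 medium with 2i and LIF. Cells received the translation inhibitor cycloheximide at 0.1 µg/mL, and 3 libraries (replicates A, B and C) were sequenced per line at the start (0 h) and after 1, 2, 5 and 48 h, 30 in all. The 0 h libraries carry the same knock-in as the treated ones, the labels do not say whether either line is a single clone, and the later times are compared with those 0 h libraries. No untreated cells were sequenced at the later times, so cycloheximide and time in culture cannot be told apart. Line and medium cannot be told apart either.

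CCT is built of a pair of stacked rings, each with 1 copy of every subunit, so the complex needs the products of all 8 genes. A polypeptide enters the cavity, ATP closes a built-in lid, and folded protein is released. The subunits encoded by Cct2, Cct4, Cct5 and Cct7 bind ATP more tightly than those encoded by Tcp1, Cct3, Cct6a and Cct8. Prefoldin hands unfolded actin and tubulin to CCT, phosducin-like proteins modulate it, and tubulin cofactors take up the tubulin it releases.

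The promoters of 5 subunit genes are shown because these genes bracket the responses described further on. Cct3 and Cct6a had the largest increases at 5 h in CGR8 cells, and Tcp1 and Cct8 the smallest. Cct7 was the only gene whose response was called different between the lines at 5 h, though that call was not stable. Each run holds the 250 bases before and the 50 bases after an annotated start, 5′ to 3′ on the gene's own strand, from RefSeq on build GRCm38.p6. Capitals mark CCAAT or its reverse complement ATTGG, the letters of the CCAAT box. The windows lie at chr3:88296885-88297184 (plus strand) for Cct3, chr5:129787106-129787405 (plus) for Cct6a, chr6:85451255-85451554 (plus) for Cct7, chr17:12916079-12916378 (plus) for Tcp1 and chr16:87495820-87496119 (minus) for Cct8.
Cct3: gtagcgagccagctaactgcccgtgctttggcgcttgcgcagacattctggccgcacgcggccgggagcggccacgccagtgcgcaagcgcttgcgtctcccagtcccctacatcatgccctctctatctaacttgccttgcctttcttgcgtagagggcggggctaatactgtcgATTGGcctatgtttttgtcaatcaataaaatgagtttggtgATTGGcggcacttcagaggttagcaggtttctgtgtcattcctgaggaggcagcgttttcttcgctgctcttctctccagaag
Cct6a: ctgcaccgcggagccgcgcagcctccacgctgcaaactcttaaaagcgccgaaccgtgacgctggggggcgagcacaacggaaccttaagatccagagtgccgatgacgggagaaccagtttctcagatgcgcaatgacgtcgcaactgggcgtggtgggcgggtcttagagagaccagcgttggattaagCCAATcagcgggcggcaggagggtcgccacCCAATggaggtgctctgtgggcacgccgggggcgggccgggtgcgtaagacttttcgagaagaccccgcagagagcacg
Cct7: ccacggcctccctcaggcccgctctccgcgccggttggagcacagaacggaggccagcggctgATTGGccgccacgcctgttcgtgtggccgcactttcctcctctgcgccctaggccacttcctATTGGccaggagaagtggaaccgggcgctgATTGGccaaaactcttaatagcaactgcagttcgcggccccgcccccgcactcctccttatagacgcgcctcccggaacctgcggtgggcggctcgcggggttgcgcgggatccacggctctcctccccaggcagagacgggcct
Tcp1: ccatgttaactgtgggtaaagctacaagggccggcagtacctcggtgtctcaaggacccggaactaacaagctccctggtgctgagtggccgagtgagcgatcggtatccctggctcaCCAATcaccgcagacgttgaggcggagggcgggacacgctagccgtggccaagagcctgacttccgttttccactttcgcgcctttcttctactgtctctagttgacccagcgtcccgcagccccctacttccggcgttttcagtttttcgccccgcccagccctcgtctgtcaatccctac
Cct8: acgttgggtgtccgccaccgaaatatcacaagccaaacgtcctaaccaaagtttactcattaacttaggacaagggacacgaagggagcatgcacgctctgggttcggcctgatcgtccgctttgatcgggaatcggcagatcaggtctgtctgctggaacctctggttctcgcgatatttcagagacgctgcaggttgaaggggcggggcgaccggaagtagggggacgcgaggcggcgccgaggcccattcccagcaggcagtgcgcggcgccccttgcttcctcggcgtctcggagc

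A window was found for 7 of the 8 genes, all but Cct4, and Cct2 and Cct5 each had a pair of annotated starts. CCAAT was present on either strand in the windows of 4 of the 7 genes, with 1 match in Tcp1, 2 in Cct3, 2 in Cct6a and 3 in Cct7, against 37.9% of 27025 promoters of all genes and 40.6% of the 8731 promoters of genes tested in both lines. Of the genes called higher at 5 h in both lines, Cct3 and Cct6a carry these letters and Cct5 does not, and of those called in neither, Tcp1 carries them and Cct8 does not. The heat shock element letters GAANNTTC occurred in Cct2 (7.95% of all promoters, 5.46% of those of genes tested in both lines) and TTCNNGAA in Cct5 and Cct6a (8.4% and 6.71%), and these 2 patterns can overlap each other. The ETS core CCGGAAG occurred in Tcp1, Cct2 and Cct8 (9.12% and 20.7%), the cyclic AMP element letters TGACG in Cct6a (21% and 33.8%) and the NRF1 palindrome in Cct5 (0.977% and 2.31%). CACGTG, the letters bound by MYC, occurred in none of the 7 (7.24% and 10.7%). The percentages count 1 window per gene, while both windows of Cct2 and Cct5 were searched, so the members had more sequence to match. Each match in Cct2 and Cct5 lay in only 1 window of the pair. A match of letters is not a bound site.

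Library totals ran from 18.2 M to 30.5 M counts. Markers of embryonic stem cells reached at most 0.383 CPM (counts per 1 M library counts) in any NIH/3T3 library and were never below 375 CPM in CGR8 libraries. Of the fibroblast genes, Col1a1 was at least 1600 CPM in NIH/3T3 and at most 0.727 CPM in CGR8, while Thy1 and Postn were nearly absent from NIH/3T3. The subunit genes often shifted together between replicates. All 8 were highest of their group in replicate C of NIH/3T3 at 1 h and in replicate B of CGR8 at 0 h and at 48 h. All 8 were lowest in replicate C of NIH/3T3 at 5 h, in replicate A of CGR8 at 0 h and at 1 h, in replicate B of CGR8 at 2 h and in replicate C of CGR8 at 5 h. Some of these libraries stood apart over all genes too. For pairs with replicate C of NIH/3T3 at 1 h, chi-square over its degrees of freedom was 68.4 and 80.7. It was 4.06 for A with B. At 0 h in CGR8 it was 32.4 and 32.5 for pairs with replicate B, against 3.26 for A with C. How many of all genes shared these extremes was not counted. CPM gives a gene's part of the RNA sequenced, so less of a transcript per cell and fewer cells that hold it cannot be told apart, and neither can a change in total RNA per cell. The labels do not say whether replicates were separate cultures, so the p-values measure the spread between these libraries, which may be technical.

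At 0 h the subunit genes were all well expressed but not at equal levels. Summed over the 8 genes, the level was 6793 ± 160 CPM (SD, n = 3) in NIH/3T3 and 8140 ± 1010 CPM in CGR8. Per kilobase of transcript in NIH/3T3, Cct2 led with 726 ± 4.03 CPM per kb, followed by Cct5 with 596 ± 22.8, Cct3 with 403 ± 22 and Cct4 with 334 ± 6.4. Cct7 (304 ± 14.1), Cct6a (295 ± 11.7) and Cct8 (285 ± 8.35) came next, with neighbours in this order whose SD ranges overlap, and Tcp1 was last with 201 ± 7.98. In CGR8 the levels per kilobase were more even: Cct2 (552 ± 59.7), Cct5 (536 ± 74.6), Cct3 (530 ± 78.1), Cct6a (502 ± 50.9) and Cct8 (470 ± 35.6) had overlapping SD ranges. Within each library, though, Cct8 was below Cct6a, and Cct6a was below Cct2, Cct3 and Cct5. Cct7 (384 ± 64.1), Cct4 (371 ± 53.4) and Tcp1 (327 ± 46.4) followed with SD ranges that overlap, and they stood in this order in each library. Per kilobase, Tcp1 was the lowest and Cct2 the highest by mean in both lines. In CPM, Cct6a (1232) and Cct8 (1126) stood above Cct2 (1082) in CGR8, so the lead of Cct2 there rests on the transcript lengths used.

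Scaled together over the 30 libraries, 5 subunit genes were higher in CGR8 than in NIH/3T3 at 0 h and 1 was lower by edgeR's quasi-likelihood test at a Benjamini-Hochberg adjusted p under 0.05. Of all genes tested, 42.8% were called higher and 36.3% lower, so calls in this comparison were common. Cct6a was at 733 ± 24 CPM in NIH/3T3 and 1211 ± 130 CPM in CGR8, a log2 difference of 0.72 ± 0.12 (SE). The log2 differences were 0.68 ± 0.08 for Cct8, 0.66 ± 0.11 for Tcp1, 0.35 ± 0.13 for Cct3 and 0.30 ± 0.13 for Cct7. Cct2 went the other way, from 1443 ± 18 CPM in NIH/3T3 to 1064 ± 121 CPM in CGR8, a log2 difference of -0.44 ± 0.10. Cct4 (0.11) and Cct5 (-0.20) did not pass the test. The median over all genes was 0.15 in this comparison, not 0.

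In NIH/3T3 cells cycloheximide was followed by a modest increase of some subunit transcripts within hours and by a decrease of every subunit transcript at 48 h. From 6793 ± 160 CPM at 0 h, the summed level went to 8038 ± 276 CPM (2 h) and 8259 ± 211 CPM (5 h) and then to 4707 ± 36.1 CPM (48 h; SD, n = 3). At 1 h none of the 8 passed edgeR's test, which called 0.732% of all genes, and 0 had an unadjusted p under 0.05. DESeq2 called 0 of the 8, and voom with sample weights called 1 (Cct8, lower). Over all genes, edgeR called 102, DESeq2 265 and voom 2881. The median log2 change at 1 h was 0.08, and it was -0.11 without replicate C of that time.

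**Figure D1:**
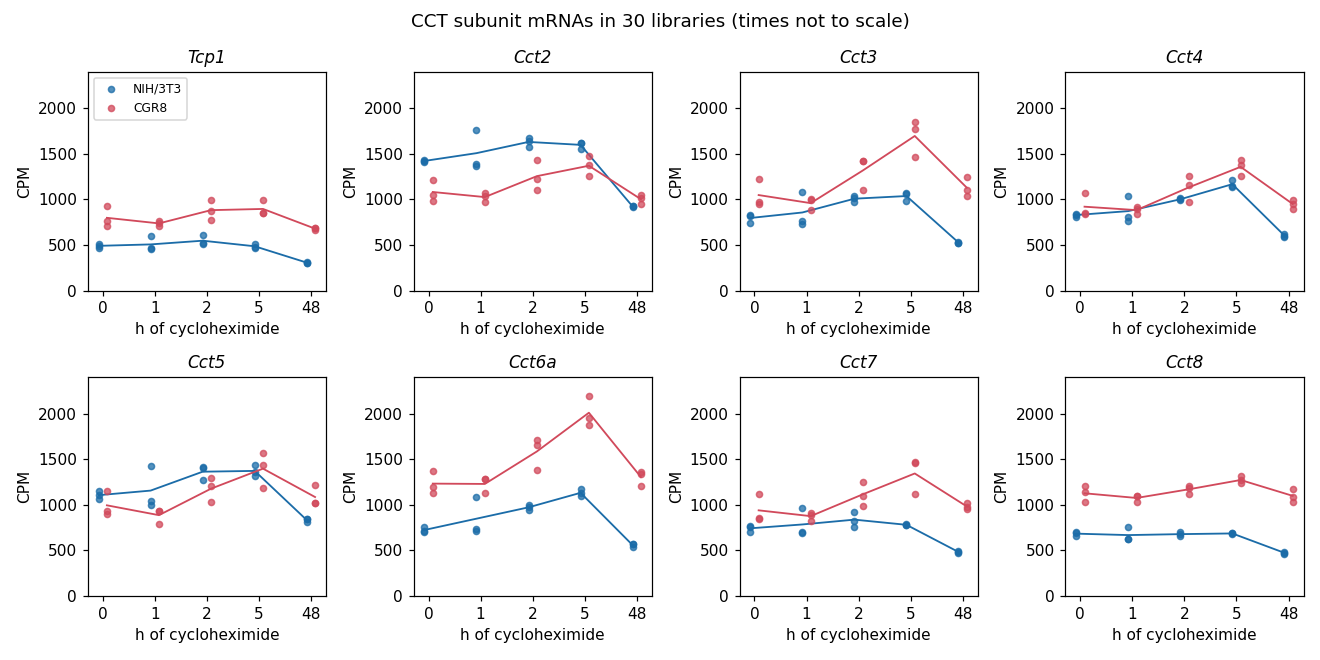
Level in CPM of each of the 8 CCT subunit genes in every library, by hours of cycloheximide, for NIH/3T3 and CGR8 with 3 libraries per time. In NIH/3T3 all 8 genes end lower at 48 h than at 0 h, and in CGR8 Cct6a peaks at 5 h with 1955, 2198 and 1875 CPM.

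Cct6a, the zeta subunit gene, had the largest early change in NIH/3T3. It was read at 700, 755 and 714 CPM at 0 h, 946, 973 and 996 at 2 h, and 1125, 1174 and 1093 at 5 h. The groups do not overlap at either time, and the log2 change was 0.43 ± 0.12 (SE, adjusted p = 0.0139 by edgeR) at 2 h and 0.65 ± 0.12 (adjusted p = 0.000376) at 5 h. Cct4, the delta subunit gene, was read at 812, 834 and 843 CPM at 0 h and at 1145, 1217 and 1142 CPM at 5 h. Its 3 libraries at 5 h lay above the 3 at 0 h, with a log2 change of 0.49 ± 0.10 (adjusted p = 0.00058 by edgeR). Cct3, the gamma subunit gene, was read at 747, 815 and 829 CPM at 0 h and at 1069, 1057 and 988 CPM at 5 h, a log2 change of 0.38 ± 0.12. Cct5, the epsilon subunit gene, was read at 1062, 1106 and 1147 CPM at 0 h and at 1434, 1364 and 1315 CPM at 5 h, a log2 change of 0.31 ± 0.11. Neither of these genes had overlapping groups.

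The same 4 genes, and no others, were called higher at both 2 h and 5 h, which share their 0 h libraries. That is 4 of 8 against 16.1% of all genes called higher at 2 h and 24% at 5 h. At 5 h, 6 of the 8 had all 3 libraries above the 3 at 0 h, as did 32.3% of all genes. The median log2 change of the 8 was 0.24 at each time, beside -0.01 for all genes at 5 h. The 4 calls at 2 h did not hold without any of the 6 libraries compared: 0 genes were called without 0 h A, 1 without 0 h B, 0 h C or 2 h C, and 2 without 2 h A or 2 h B. In these fits the median log2 change of the 8 ran from 0.22 (without 0 h A) to 0.26 (without 0 h C). At 5 h 2 genes were called without 0 h A, since Cct3 (0.33) and Cct5 (0.28) no longer passed. Cct5 also lost its 5 h call without 0 h B, 5 h A or 5 h B.

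The other subunits moved little by 5 h in NIH/3T3. Cct8, the theta subunit gene, was read at 697, 691 and 660 CPM at 0 h and at 692, 685 and 678 CPM at 5 h. Tcp1, the alpha subunit gene and namesake of the family, was read at 472, 511 and 491 CPM at 0 h and at 482, 511 and 468 CPM at 5 h. Both sets of values overlap, with log2 changes of 0.00 ± 0.08 for Cct8 and -0.01 ± 0.10 for Tcp1. Cct7 (0.07 ± 0.11) and Cct2 (0.17 ± 0.09) did not pass the test either. Cct8 and Tcp1 stood at the 51.1 and 49.9 percentiles of all genes by log2 change, and Cct6a at 86.8.

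At 48 h all 8 genes were called lower than at 0 h in NIH/3T3, where 25.6% of all genes were called lower. In each of the 8 the 3 libraries at 48 h lay below the 3 at 0 h, as in 34.7% of all genes. Tcp1 fell the furthest, to 310, 306 and 306 CPM, a log2 change of -0.68 ± 0.10 (adjusted p = 5.69e-05 by edgeR). Cct2, the beta subunit gene, went from 1414, 1426 and 1429 CPM to 913, 924 and 933 CPM, a log2 change of -0.62 ± 0.09. Cct7, the eta subunit gene, went from 703, 751 and 770 CPM to 481, 475 and 489 CPM, also a log2 change of -0.62. The 48 h values of both genes lie close together and far below those at 0 h. Cct6a changed least, to 541, 566 and 564 CPM, a log2 change of -0.38 ± 0.12 (adjusted p = 0.0162 by edgeR), and its call was lost without 0 h B or 48 h A. The log2 changes of Cct3 (-0.59), Cct8 (-0.53), Cct4 (-0.46) and Cct5 (-0.41) lay between. The median of the 8 was -0.56, against -0.01 for all genes.

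Measured from 5 h to 48 h, all 8 genes were again called lower in NIH/3T3, against 31.4% of all genes. The order of the changes differed from that against 0 h, with which this comparison shares its 48 h libraries. Cct6a had the largest, with a log2 change of -1.02 ± 0.12, followed by Cct3 (-0.98) and Cct4 (-0.95). Cct8 had the smallest with -0.54 ± 0.08.

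In CGR8 cells 6 of the 8 subunit transcripts rose by 5 h, and none was called different from 0 h at 48 h. From 8140 ± 1010 CPM at 0 h, the summed level went to 9632 ± 1040 CPM (2 h), 11341 ± 996 CPM (5 h) and back to 8230 ± 477 CPM (48 h; SD, n = 3). At 1 h none of the 8 passed edgeR's test, which called 0.27% of all genes, and 0 had an unadjusted p under 0.05. DESeq2 and voom also called 0 of the 8, while over all genes edgeR called 43, DESeq2 132 and voom 1044. At 2 h only Cct6a was called higher, with a log2 change of 0.36 ± 0.11 (adjusted p = 0.0358 by edgeR), against 8.97% of all genes. That call was lost without any of 0 h A, 0 h C, 2 h A or 2 h C, and 3 genes were called without 0 h B or without 2 h B.

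At 5 h in CGR8 6 of the 8 genes were called higher, against 24.9% of all genes. In 6 of the 8, which include Cct8 and not Cct7, every 5 h library lay above every 0 h library, as in 25.7% of all genes. Cct6a was read at 1133, 1372 and 1190 CPM at 0 h and at 1955, 2198 and 1875 CPM at 5 h, a log2 change of 0.71 ± 0.12 (adjusted p = 0.000115 by edgeR). Cct3 was read at 945, 1226 and 974 CPM at 0 h and at 1769, 1855 and 1466 CPM at 5 h, a log2 change of 0.69 ± 0.14. In both genes replicate B of 0 h was the highest of its group and replicate C of 5 h the lowest, and the groups still did not overlap.

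The other genes called at 5 h in CGR8 were Cct4, Cct5, Cct7 and Cct2. Cct4 was read at 836, 1074 and 853 CPM at 0 h and at 1381, 1433 and 1260 CPM at 5 h, a log2 change of 0.56 ± 0.12. Cct5 was read at 896, 1152 and 933 CPM at 0 h and at 1568, 1438 and 1181 CPM at 5 h, a log2 change of 0.49 ± 0.14. The lowest 5 h value of Cct5 stood just above its highest 0 h value. Cct7 was read at 840, 1119 and 857 CPM at 0 h, and at 5 h its replicates A and B were at 1453 and 1463 CPM but replicate C at 1112 CPM. Its log2 change was 0.52 ± 0.13 with overlapping groups, since replicate C lay just below the highest 0 h library. Cct2 was read at 984, 1211 and 1052 CPM at 0 h and at 1374, 1477 and 1260 CPM at 5 h, a log2 change of 0.34 ± 0.11 (adjusted p = 0.0201 by edgeR), which was lost without 0 h A, 0 h C or 5 h B.

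The remaining pair, Tcp1 and Cct8, did not pass the test at 5 h in CGR8, as in NIH/3T3. Tcp1 was read at 710, 927 and 760 CPM at 0 h and at 852, 990 and 848 CPM at 5 h, a log2 change of 0.17 ± 0.12. Its groups overlap through replicate B of 0 h, and without that library Tcp1 was called with a log2 change of 0.30. Cct8 was read at 1035, 1204 and 1139 CPM at 0 h and at 1270, 1311 and 1233 CPM at 5 h, a log2 change of 0.18 ± 0.09 (adjusted p = 0.121 by edgeR). All 3 of its 5 h libraries lay above the 0 h libraries, but the size was small, and DESeq2 called it with a log2 change of 0.21. The median log2 change of the 8 was 0.50, against -0.01 for all genes.

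**Figure D2:**
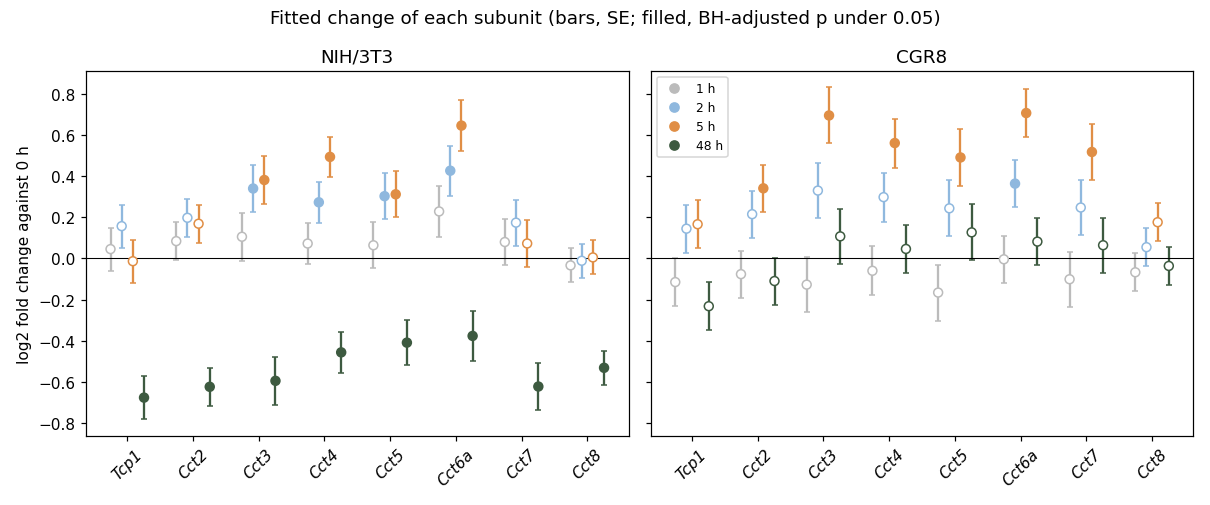
Fitted log2 fold change against 0 h for each subunit gene at 1, 2, 5 and 48 h in NIH/3T3 and CGR8. Bars are the SE of the fit and filled points passed the edgeR test. Tcp1 and Cct8 stay near 0 at 5 h in NIH/3T3 while Cct6a reaches 0.65, and all 8 points at 48 h lie below 0 in NIH/3T3 only.

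At 48 h in CGR8 none of the 8 genes passed edgeR's test against 0 h, which called 27.8% of all genes in either direction. Of the 8, 0 had an unadjusted p under 0.05. DESeq2 and voom also called 0 of the 8, while over all genes edgeR called 4429 and voom 7063. The log2 changes ran from -0.23 for Tcp1 to 0.13 for Cct5, with a median of 0.06. Tcp1, read at 669, 689 and 682 CPM at 48 h, was the member whose libraries all lay below those of 0 h. Cct6a, read at 1210, 1360 and 1340 CPM at 48 h, lay inside its range at 0 h. From 5 h to 48 h, 7 of the 8 genes were called lower in CGR8, against 28.6% of all genes. The largest of these changes was that of Cct6a with a log2 change of -0.62 ± 0.11, and Cct8 (-0.21 ± 0.09) was the member that did not pass, although DESeq2 called it with -0.23.

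Whether the lines differed in their response was tested as the difference between their log2 changes, in a fit over all 30 libraries. At 1 h none of the 8 genes passed edgeR's test, which called 0.16% of all genes, and 0 had an unadjusted p under 0.05. DESeq2 and voom also called 0 of the 8, while over all genes edgeR called 28 and voom 259. At 2 h the same held for the 8 genes, where edgeR called 355 of all genes (2.02%) and voom 709.

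At 5 h only Cct7 was called, with a response that was higher in CGR8 by 0.53 ± 0.18 on the log2 scale (adjusted p = 0.0458 by edgeR), against 8.18% of all genes called higher. It was read at 784, 778 and 777 CPM at 5 h in NIH/3T3, hardly above 0 h, beside its increase in CGR8. That call was lost without any of 9 of the 12 libraries involved, with log2 differences from 0.28 to 0.67, and the lowest values came without replicate A or B of CGR8 at 5 h. The median difference of the 8 was 0.26, while that of all genes was 0.13. Scaling moved both: with DESeq2's size factors in edgeR (RLE) they were 0.18 and 0.05, and with library size alone 0.07 and -0.06. Cct7 was called under neither, and the differences of Cct6a (0.15) and Cct4 (0.16) changed sign with library size alone.

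At 48 h the responses of 6 genes were called higher in CGR8, against 9.78% of all genes. The differences in log2 change were 0.68 ± 0.18 for Cct3 (adjusted p = 0.00742 by edgeR), 0.67 ± 0.18 for Cct7, 0.52 ± 0.18 for Cct5, 0.50 ± 0.15 for Cct2 and 0.48 for both Cct4 (SE 0.16) and Cct8 (SE 0.12). Cct6a (0.44 ± 0.17, adjusted p = 0.0621) and Tcp1 (0.43 ± 0.16, adjusted p = 0.0509) narrowly missed the threshold, and DESeq2 called all 8. These differences set the fall in NIH/3T3 beside levels near those of 0 h in CGR8. The median difference of the 8 was 0.49, against -0.03 for all genes. Leaving out 1 library at a time gave 4 to 8 genes called. The call of Cct4 was lost without CGR8 0 h A, 0 h C or 48 h B. That of Cct5 was lost without any of these or without NIH/3T3 0 h C, 48 h B or 48 h C.

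**Figure D3:**
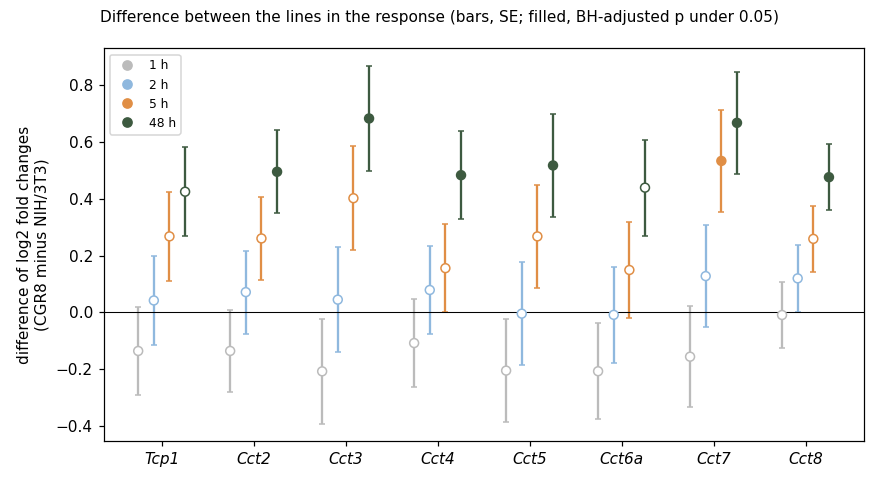
Difference between CGR8 and NIH/3T3 in the log2 change of each subunit gene against 0 h, at 1, 2, 5 and 48 h, with the SE as bars and filled points for those past the edgeR test. At 48 h all 8 differences lie between 0.43 and 0.68, and 6 are filled.

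Because the members changed by different amounts, the make-up of the CCT transcripts moved with time. These shares are each gene's part of the counts of the 8 genes in a library, so they do not depend on how libraries were scaled, and they are given as a description. Cct6a went from 10.6% ± 0.301 of the 8 genes' counts at 0 h to 13.7% ± 0.251 at 5 h and 11.8% ± 0.357 at 48 h in NIH/3T3 (SD, n = 3). In CGR8 it went from 15.2% ± 0.328 to 17.7% ± 0.803 and 15.8% ± 0.505. Cct8 moved the other way, from 10.1% ± 0.482 to 8.30% ± 0.157 and 10.0% ± 0.205 in NIH/3T3, and from 13.9% ± 0.866 to 11.3% ± 0.693 and 13.3% ± 0.083 in CGR8. Tcp1 went from 7.23% ± 0.164 to 5.89% ± 0.163 and 6.54% ± 0.0467 in NIH/3T3, and from 9.80% ± 0.179 to 7.92% ± 0.514 and 8.28% ± 0.359 in CGR8. Its share at 48 h was below that at 0 h in every library of both lines.

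**Figure D4:**
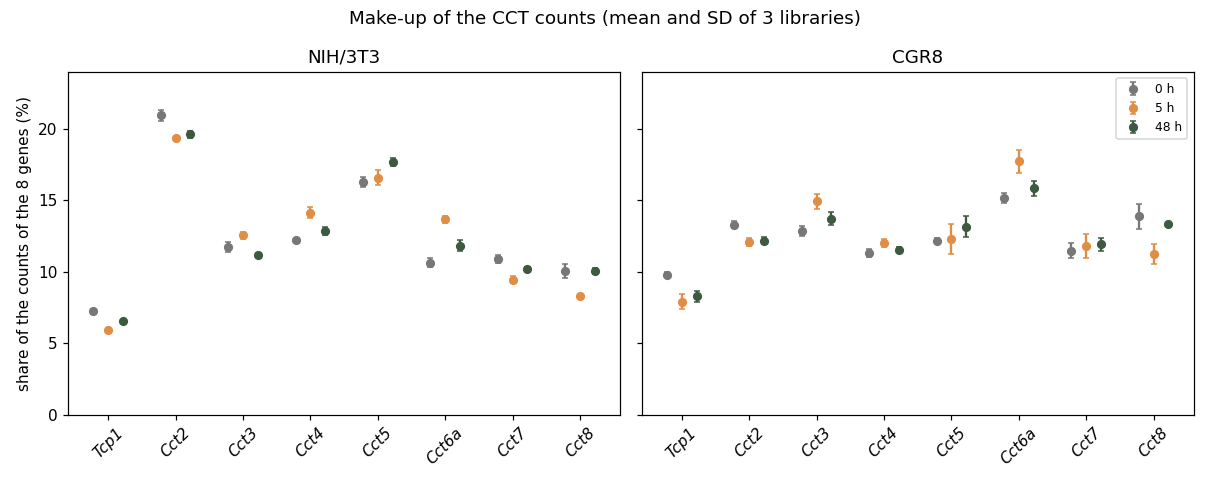
Share (%) of each subunit gene in the summed counts of the 8 genes at 0, 5 and 48 h, as mean and SD of 3 libraries, in NIH/3T3 and CGR8. Cct6a is raised and Tcp1 and Cct8 are lowered at 5 h in both lines, while Cct7 falls from 10.9% to 9.45% in NIH/3T3 and is 11.5% and 11.8% in CGR8.

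The counts of Cct6a divided by those of Cct8 in the same library describe this without any scaling. Like Cct4 with Tcp1 below, this pair joins a gene with a large change at 5 h to one with a small change. A higher ratio at 5 h follows from that choice. The ratio was 1.00, 1.09 and 1.08 at 0 h, 1.63, 1.72 and 1.61 at 5 h and 1.11, 1.23 and 1.2 at 48 h in NIH/3T3. At 1 h it was 1.15, 1.18 and 1.45 in NIH/3T3, so replicate C reached the values of 2 h (1.35, 1.49 and 1.47). In CGR8 it was 1.10, 1.14 and 1.05 at 0 h, 1.54, 1.68 and 1.52 at 5 h and 1.17, 1.16 and 1.23 at 48 h. In both lines the 5 h ratios stood above all others shown, also in replicate C of CGR8 at 5 h, where all 8 genes were low. The ratio of Cct4 to Tcp1 counts was 1.72, 1.63 and 1.72 at 0 h and 2.38, 2.38 and 2.44 at 5 h in NIH/3T3, and 1.18, 1.16 and 1.12 and then 1.62, 1.45 and 1.49 in CGR8.

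Across the 30 libraries the members still moved closely together. On log2 CPM centred within each line, Pearson's r over the 28 pairs ran from 0.773 (Tcp1 with Cct6a) to 0.980, with a median of 0.914. Against the mean of the other 7, r was lowest for Tcp1 (0.878) and highest for Cct3 (0.985). These libraries share groups and scaling, so the values are descriptions. Of 7260 other genes at 10 CPM or more in both lines, the pattern most like the mean of the 8 was that of Psma5, a proteasome core subunit gene (r = 0.991). Next came Psmc2, a proteasome ATPase gene (0.989), Eif3h, which encodes a translation initiation factor subunit (0.986), Cmss1 (0.985) and Ddx39, an RNA helicase gene (0.984). Mrpl15 of the mitochondrial ribosome (0.981), Polr1e of RNA polymerase I (0.981), Snrnp40 of the spliceosome (0.981), Psma2 of the proteasome core (0.981) and Clns1a (0.979) completed the 10.

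Prefoldin, the hexameric cochaperone that delivers actin and tubulin to CCT, had 4 of its 6 genes called higher and none lower at 5 h in NIH/3T3, where 24% of all genes were called higher. In CGR8 5 of the 6 were called higher at that time, against 24.9% of all genes. In NIH/3T3 the log2 changes were 0.68 for Pfdn5, 0.61 for Pfdn1, 0.51 for Vbp1 and 0.30 for Pfdn4. In CGR8 they were 1.28 for Pfdn5, 1.06 for Pfdn1, 0.74 for Pfdn4, 0.61 for Vbp1 and 0.36 for Pfdn2. At 48 h 4 of 6 were called lower in NIH/3T3, against 25.6% of all genes: Pfdn4 (-0.81), Pfdn1 (-0.70), Pfdn2 (-0.47) and Vbp1 (-0.29). None was called at 48 h in CGR8 by edgeR, which called 27.8% of all genes, and 1 had an unadjusted p under 0.05. The median of the 6 was 0.41 and 0.67 at 5 h and -0.39 and 0.04 at 48 h, in NIH/3T3 and CGR8 in that order.

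The tubulin cofactors, which act on tubulin after its release from CCT, had 2 genes called higher at 5 h in NIH/3T3, Tbce (0.62) and Tbca (0.57), and 1 lower, Tbcd (-0.46), of 5. In that comparison 24% of all genes were called higher and 27.1% lower. In CGR8 4 of 5 were called higher, against 24.9% of all genes. Their log2 changes were 1.09 for Tbca, 0.65 for Tbcb, 0.49 for Tbce and 0.47 for Tbcc. At 48 h Tbcc (-0.58) and Tbca (-0.40) were called lower and Tbcd (0.37) higher in NIH/3T3, against 25.6% and 26.7% of all genes. None of the 5 was called at 48 h in CGR8 by edgeR, which called 27.8% of all genes, and 0 had an unadjusted p under 0.05.

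Of the phosducin-like genes, whose products bind CCT and adjust its activity, Txndc9 was called higher at 5 h in both lines, with log2 changes of 0.72 in NIH/3T3 and 0.41 in CGR8. In NIH/3T3 Pdcl was called lower (-0.43) at 5 h but higher (0.36) after 48 h. In CGR8 Pdcl3 (0.36) and Pdcl2 (1.12) were called higher at 5 h. Pdcl2 had no counts in any NIH/3T3 library, and it went from 5.21 ± 0.527 CPM at 0 h to 11.3 ± 1.3 CPM at 5 h in CGR8.

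Relatives of CCT in sequence or function went in both directions. Hspe1 and Hspd1 encode the cap and the barrel of the mitochondrial chaperonin. At 5 h Hspe1 was called higher (0.43 in NIH/3T3, 0.87 in CGR8) and Hspd1 lower (-0.59 and -0.54) in both lines. In CPM, Hspd1 went from 2500 ± 137 to 1665 ± 51.1 in NIH/3T3 while Hspe1 went from 606 ± 8.74 to 819 ± 14.6. At 48 h both were called lower in NIH/3T3, Hspe1 by a log2 change of -0.81 and Hspd1 by -0.59. Bbs10, a chaperonin-like gene that serves the assembly of the BBSome, was called higher at 5 h, from 3.01 ± 0.377 to 10.5 ± 1.01 CPM in NIH/3T3 (log2 change 1.80) and from 5.66 ± 0.535 to 12.7 ± 1.32 CPM in CGR8 (1.17), and at 48 h in NIH/3T3 (0.67). Its partner Bbs12 had log2 changes of 0.56 (NIH/3T3) and 0.91 (CGR8) at 5 h, both called, and was called lower in NIH/3T3 at 48 h (-0.31). Mkks was called lower in CGR8 at 5 h and 48 h (-0.38 at each). Cct6b, the paralog of Cct6a known from testis, was below 1 CPM by mean in every group. It was called higher at 48 h in NIH/3T3, from 0.114 ± 0.0588 to 0.497 ± 0.0841 CPM, and at 5 h in CGR8, from 0.424 ± 0.0234 to 0.966 ± 0.201 CPM.

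The cytosolic HSP70 and HSP90 chaperones and their cochaperones take other clients than CCT or hand them on to it. Of 16 tested at 5 h, 11 were called lower and 0 higher in NIH/3T3, where 27.1% of all genes were called lower and 24% higher. In CGR8 5 were called lower and 1 higher, where 27.2% of all genes were called lower and 24.9% higher. Hspa8, the constitutive HSP70, went from 2373 ± 51.2 CPM at 0 h to 421 ± 2.66 CPM at 5 h in NIH/3T3, a log2 change of -2.49, and from 2881 ± 535 to 1619 ± 213 CPM in CGR8, a log2 change of -0.83. Hspa1b, a stress-inducible HSP70, had log2 changes of -2.44 and -1.68. At 48 h 12 were called lower and 1 higher in NIH/3T3, against 25.6% and 26.7% of all genes. The largest of these changes were in Ahsa1 (-0.91) and Hsp90aa1 (-0.85). In CGR8 Chordc1 (0.48) and Hspa4 (0.26) were called higher at 48 h and none lower, where 27.8% of all genes were called in either direction. The median of the tested genes was -0.37 and -0.03 at 5 h and -0.51 and 0.02 at 48 h, in NIH/3T3 and CGR8. Differences between the lists were not tested.

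**Figure D5:**
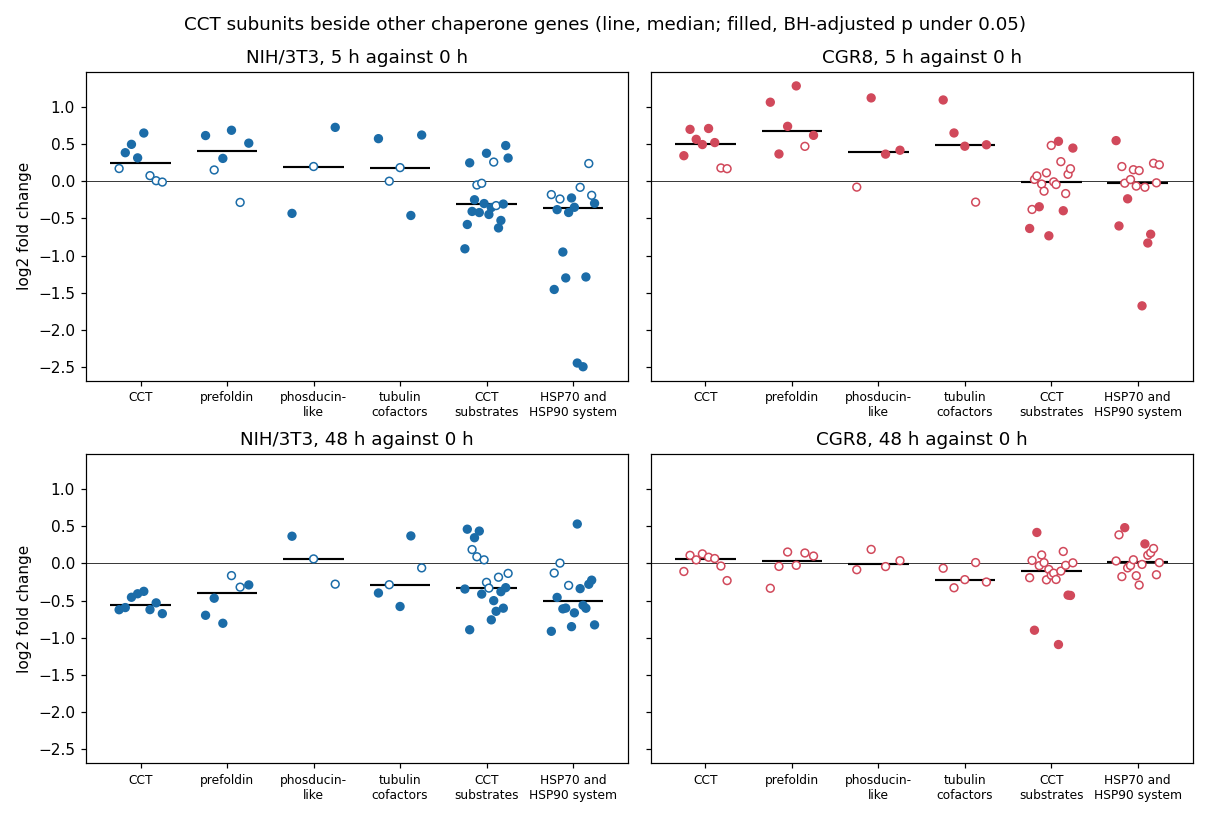
Log2 change of each tested gene against 0 h, by list, at 5 h and 48 h in NIH/3T3 and CGR8, with the median of each list as a line and filled points for genes past the edgeR test. At 5 h the CCT medians are 0.24 and 0.50 and the prefoldin medians 0.41 and 0.67, while the HSP70 and HSP90 list reaches down to -2.49 in NIH/3T3.

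Proteins known to be folded by CCT were listed as 19 genes, among them actins, tubulins, cyclin E and others. At 5 h in NIH/3T3 4 were called higher and 11 lower, against 24% and 27.1% of all genes, with the largest changes in Actb (-0.91), the beta-actin gene, and Tubb5 (-0.63), a beta-tubulin gene. Actb went from 7363 ± 575 to 3919 ± 148 CPM in NIH/3T3 and from 3964 ± 389 to 2550 ± 175 CPM in CGR8. At 5 h in CGR8 2 were called higher and 4 lower, led by Stat3 (-0.74) and Actb (-0.64), no more than the 24.9% and 27.2% of all genes. At 48 h 3 were higher and 9 lower in NIH/3T3, against 26.7% and 25.6% of all genes, led by Ccne1 (-0.89) and Tuba1c (-0.76). In CGR8 1 was higher and 4 lower, led by Tubb2a (-1.09) and Ccne1 (-0.90), a share near the 27.8% of all genes called in either direction.

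Some subunit genes overlap other genes, which bears on how reads could be assigned. In GENCODE M21 on GRCm38, Mrpl18, Psph and Pradc1 overlap the start of Tcp1, Cct6a and Cct7 head to head on the opposite strand, and Usp16 overlaps Cct8. The library kit marks strand, but whether the counting used it is not given in the sources used here. Over the 30 libraries Mrpl18 had 21.2% as many counts as Tcp1, Usp16 5.35% as many as Cct8, Psph 3.65% as many as Cct6a and Pradc1 1.89% as many as Cct7. Mrpl18, a mitochondrial ribosomal protein gene, had a log2 change of 1.13 at 5 h in CGR8 where that of Tcp1 was 0.17. Fam173b, whose start lies 48 bases from that of Cct5 and points away, was called higher at 5 h with log2 changes of 0.35 in NIH/3T3 and 0.77 in CGR8, beside 0.31 and 0.49 for Cct5. Tsacc, 117 bases from Cct3, was called at 5 h in CGR8 (1.25) at a low level, from 1.51 ± 0.121 to 3.60 ± 0.582 CPM. Listed pseudogenes of the 8 genes held at most 0.0222% of the counts of their parent.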

How the data were processed

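RNA was measured in 30 libraries, 3 per line and time. The authors deposited read counts per gene, 1 column per library, as whole numbers that sum to different totals. The submitters' processing notes name STAR, DESeq2 and the build GRCm39, without roles or versions. The counting tool, its use of strand and the annotation release are not given in the sources used here. Symbols were found for 51880 (90.7%) of 57186 identifiers in GENCODE M21 on GRCm38, from which gene neighbours and transcript lengths (longest CCDS transcript, or basic transcript for Cct6a) were also taken.

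Genes passed edgeR's filterByExpr at its defaults (at least 10 counts in enough libraries and 15 in all). Counts were fitted per line over 15 libraries, or over all 30 for differences between lines, with TMM scaling and edgeR's quasi-likelihood test (edgeR 4.0.16, R 4.3.3). P-values were adjusted by Benjamini-Hochberg over all genes tested, and adjusted values under 0.05 count as calls. A comparison between lines tests the contrast of log2 changes. The SE is the log2 change divided by the root of its F statistic. CPM used TMM library sizes, and patterns used log2 CPM with a prior count of 2. The fit was run on simulated counts in which a small set of genes changed in both directions at 5 h. That run does not test scaling where a large part of all genes changes, as here. No pair of replicate libraries agreed within sampling noise (chi-square over its degrees of freedom at least 1.67).

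The alternatives were RLE scaling, library size alone, DESeq2 1.42.0, no filter, a mean of at least 5 CPM, only the groups compared, a replicate block, voom with sample quality weights (limma 3.58.1) and leaving out each library. The 8 genes and all lists were chosen with earlier results of these data known. By rule the text names all 8 members, the called genes of lists of up to 6 and the 2 with the largest changes of longer lists at 5 h and 48 h, the 10 genes with the most similar pattern, and called genes whose start lies within 1000 bases and points away.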

Additional observations from a re-analysis of the deposited data

Results flagged for a closer look

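A difference between the lines in the response to cycloheximide, tested as the difference of log2 changes with edgeR over 30 libraries, marked 7 results. At 5 h the response of Cct7 was higher in CGR8 by 0.53 (SE 0.18, adjusted p = 0.0458). At 48 h the differences were 0.50 for Cct2, 0.68 for Cct3, 0.48 for Cct4, 0.52 for Cct5, 0.67 for Cct7 and 0.48 for Cct8, each higher in CGR8. In NIH/3T3 all 3 libraries at 48 h lay below those at 0 h for each of these 6 genes, and in CGR8 they overlapped. All 8 genes were highest in replicate B of CGR8 at 0 h, and without that library the 5 h difference of Cct7 was 0.67.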

How the results depend on the processing

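No alternative turned the direction of a called change in any of the 8 genes, and the counts of members called at 48 h and at 5 h in CGR8, at 48 h in NIH/3T3 and at 0 h between lines stayed within 1.5 times under every alternative run. The calls at 2 h and the difference between lines at 5 h did not hold so well. For CGR8 at 2 h, where 1 member was called, the count was 3 with library size alone, 0 without the filter, 2 at a mean of at least 5 CPM, 4 with voom and sample weights and 0 with the compared groups alone. For the difference between lines at 5 h, also 1 member, it was 0 with RLE scaling, library size alone, DESeq2, a mean of at least 5 CPM or the compared groups alone, and 8 with voom. For NIH/3T3 at 1 h voom called 1 member, lower. The cause of these changes was not tested. Leaving out 1 library at a time gave 0 to 2 members at 2 h and 2 to 4 at 5 h in NIH/3T3 (4 each in the full data). It gave 0 to 3 at 2 h in CGR8, and 0 to 1 and 4 to 8 for the differences between lines at 5 h and 48 h.

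Background counts of called genes over all genes moved by over 1.5 times as follows. At 1 h in NIH/3T3, 102 became 265 (DESeq2), 272 (no filter), 2881 (voom) and 27 (compared groups alone), and at 2 h 4878 became 7827 (voom). In CGR8, 43 at 1 h became 132, 202, 1044 and 65 in the same order, 3174 at 2 h became 965 with the compared groups alone, and 4429 at 48 h became 7063 with voom. For the differences between lines, 28 at 1 h became 44 (no filter), 259 (voom) and 15 (compared groups alone), 355 at 2 h became 709 (voom) and 182 (compared groups alone), and voom gave 6373 for 2329 at 5 h and 7622 for 3849 at 48 h. At 0 h 13883 became 8601 at a mean of at least 5 CPM, where fewer genes are tested. Leaving out 1 library at a time moved these counts past 1.5 times at 1 h and 2 h within a line: 52 to 475 and 3050 to 5599 in NIH/3T3, and 15 to 26 and 1062 to 3924 in CGR8.

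With the replicate letter as a replicate block, the counts of members called were unchanged in all 15 comparisons, for example 4 at 5 h and 8 at 48 h in NIH/3T3, 6 at 5 h in CGR8, and 1 and 6 for the differences between lines at 5 h and 48 h. Correlations after removal of group means cannot settle whether the letters pair the samples, since the ranges overlap. Same-letter libraries correlated from -0.492 to 0.539 (median 0.0493) in NIH/3T3 and from -0.775 to 0.708 (median 0.0548) in CGR8. Libraries with different letters correlated from -0.571 to 0.488 (median -0.0496) and from -0.799 to 0.861 (median -0.0354).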
